A study of Mus musculus with 24 samples.

Results

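The genes described here are YAP, TAZ and TEAD1, which act at the end of the Hippo pathway, together with 5 genes often read as their targets. The mouse symbols are Yap1, Wwtr1 (TAZ), Tead1, Ankrd1, Cyr61, Ctgf, Amotl2 and Axl. They were chosen by symbol from the deposited table, where these 8 are found among 40750 genes, and all 8 were among the 13721 genes that passed the filter on low values. YAP and TAZ are transcriptional coactivators without a DNA-binding domain of their own. When the Hippo kinases MST and LATS are active, YAP and TAZ are phosphorylated and held in the cytoplasm. When the kinases are inactive, for instance in stretched or spread cells, they enter the nucleus and bind TEAD factors, which recognise the sequence GGAATG. In the kidney the pathway is known for its part in tubule growth, in podocyte survival and in fibrosis after injury. Much of this control acts on the protein, whereas the values below are RNA levels.

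All mice were males of 8 to 10 weeks on a mixed background with the genotype Kim1-GCE+/-; EGFPL10a+/-, sham mice included. Each received tamoxifen 6 hours before and 24 hours after surgery. Injured mice had both renal pedicles clamped for 20 minutes and were killed at day 2, day 7 or day 14, and sham mice had the same operation without the clamp. In translating ribosome affinity purification (TRAP), a GFP-tagged ribosomal protein (EGFP-L10a) is pulled down with an anti-GFP antibody. The RNA that came down with it is called bound, and the RNA left behind, which the labels take as total kidney, is called unbound. The 12 mice gave 24 libraries in 8 groups of 3. The tag is switched on by a tamoxifen-dependent Cre (GCE) under the Kim1 promoter, so only cells with Kim1 promoter activity around the tamoxifen doses should carry it. Whether the bound RNA of sham kidneys came from tagged ribosomes was not tested.

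Values are RPKM, read counts scaled by gene length and by the total of the library. Depth, inferred from the spacing of the low values, was 15713950 to 24651950 reads per library. The labelled cell type was checked by marker genes. Havcr1, which encodes Kim1, was at 1.51, 1.49 and 5.62 RPKM in bound sham RNA and at 50.5, 113 and 211 RPKM in bound RNA of day 2. In unbound RNA it was at 4.32, 3.93 and 24.1 RPKM in sham and at 84.5, 151 and 143 RPKM at day 2, and the fractions overlapped at both times. By mouse, bound was below unbound in every sham mouse and in all day 2 mice but the third. At day 7 Havcr1 was at 131, 132 and 248 RPKM in bound and 38.1, 54.9 and 125 RPKM in unbound RNA, with bound above unbound in every library. At day 14 it was at 53.6, 33.7 and 21.7 RPKM in bound and 18.4, 20.7 and 34.3 RPKM in unbound RNA. The fractions overlapped again there, with bound below unbound in the third mouse. In sham kidneys, 6 of 10 proximal tubule markers were lower in bound than in unbound RNA and 7 of 7 podocyte markers were higher. Of all tested genes 12.9% were lower and 14.6% higher. While 0 of the 10 proximal tubule markers were called higher, their summed RPKM was 6533, 6944 and 3995 bound and 3914 to 4854 unbound. Most of the bound sum was Miox, at 5489, 5824 and 3120 RPKM bound and 1821, 2591 and 2598 unbound. Slc34a1 went the other way, at 605, 528 and 538 RPKM bound and 1295, 1256 and 1466 unbound. The third day 14 mouse stood apart. Its bound library correlated with the mean of the other day 14 bound libraries at r = 0.901. Its unbound library correlated with the mean of the other day 14 unbound libraries at 0.941. Each was the lowest such within-group value of its fraction. Its summed RPKM of 10 macrophage markers was 1836 bound and 1861 unbound, against 121 to 176 and 318 to 392 in the other day 14 mice. The day 14 folds of the 8 genes in bound RNA are therefore given without it too. Over the whole table of tested genes, the median log2 fold against sham lay between 0.13 and 0.22, so a fold of this size is that of the typical gene.

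RefSeq promoter entries (GRCm38.p6) matched 6 of the 8 genes, and those that the results turn on are shown because the targets are read through the TEAD site. In the 250 bases before the start site, GGAATG on either strand (CATTCC on the other strand) was found in 6 of 6 of these genes, against 12.64% of 32851 promoter windows of that length. The AP-1 sequence TGANTCA, whose first letters can be the last letters of GGAATG, was found on either strand in 0 of 6, against 6.749% of windows. A match describes these letters and is not evidence of binding. The windows of Ankrd1 (chr19:36119845-36120094, minus strand), Cyr61 (chr3:145649986-145650235, minus strand) and Amotl2 (chr9:102717554-102717803, plus strand) are given whole, because Ankrd1 and Cyr61 rose in bound RNA at day 7 where Amotl2 fell. In unbound RNA Amotl2 was not called against sham and its folds were positive. For Yap1, Wwtr1 and Axl only the bases around the match are given, with the match at chr9:8004732-8004737, chr3:57576041-57576046 and chr7:25788961-25788966, all on the minus strand. Capitals mark the motif and all are written 5′ to 3′ along the gene.
Ankrd1: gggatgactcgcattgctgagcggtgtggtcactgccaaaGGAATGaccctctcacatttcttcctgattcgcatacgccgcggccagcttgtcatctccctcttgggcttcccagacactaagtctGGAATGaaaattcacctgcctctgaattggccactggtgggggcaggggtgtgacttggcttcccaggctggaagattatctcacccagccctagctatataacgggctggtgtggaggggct
Cyr61: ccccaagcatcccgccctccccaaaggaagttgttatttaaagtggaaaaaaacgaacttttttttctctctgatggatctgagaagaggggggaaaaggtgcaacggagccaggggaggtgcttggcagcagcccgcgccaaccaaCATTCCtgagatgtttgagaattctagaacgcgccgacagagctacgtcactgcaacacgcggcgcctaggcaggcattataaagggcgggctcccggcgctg
Amotl2: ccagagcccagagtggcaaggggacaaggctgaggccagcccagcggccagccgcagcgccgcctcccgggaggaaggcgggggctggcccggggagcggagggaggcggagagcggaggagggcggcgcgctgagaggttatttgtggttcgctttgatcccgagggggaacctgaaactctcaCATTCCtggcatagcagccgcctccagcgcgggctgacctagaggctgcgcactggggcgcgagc
Yap1: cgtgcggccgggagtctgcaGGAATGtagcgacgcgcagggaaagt
Wwtr1: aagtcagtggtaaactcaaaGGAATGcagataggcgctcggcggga
Axl: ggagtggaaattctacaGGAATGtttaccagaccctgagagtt
Ankrd1 held the motif at 2 places, 210 to 205 and 123 to 118 bases before its start. The single match lay 103 to 98 bases before the start in Cyr61, 65 to 60 in Amotl2 and 233 to 228 in Axl.

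**Figure D1:**
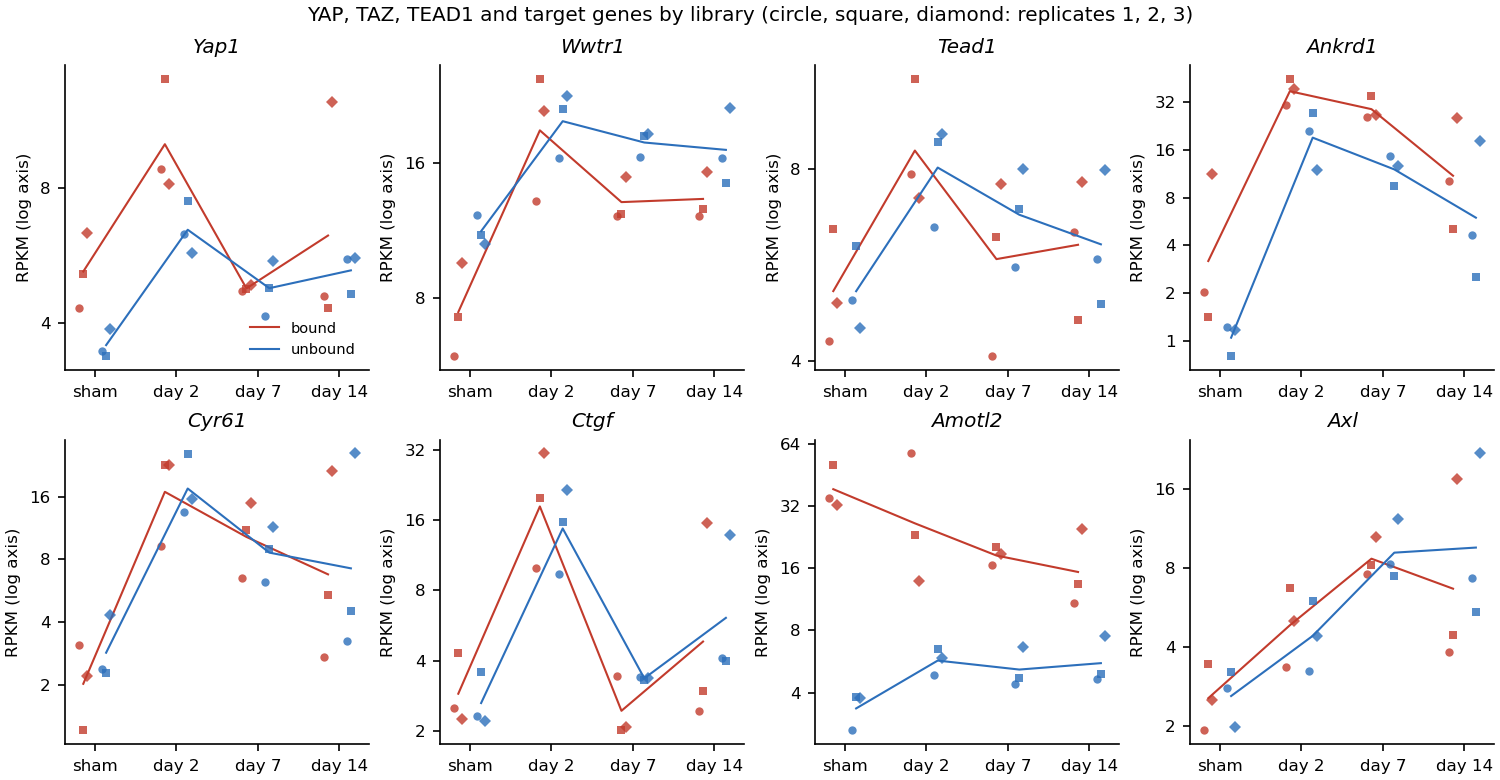
RPKM (log axis) of the 8 genes in each of the 24 libraries, by time on the x axis. Red is bound and blue is unbound RNA, circles, squares and diamonds are replicates 1, 2 and 3, and lines join the geometric means of the groups. Ankrd1, Cyr61 and Ctgf are highest at day 2, Amotl2 is highest in bound sham RNA, and the third day 14 mouse (diamonds) lies above the other day 14 mice for most genes.

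Against sham, 5 of the 8 genes rose in bound RNA at day 2, namely Yap1, Wwtr1, Ankrd1, Cyr61 and Ctgf, where 19.8% of all tested genes were called and 13.3% were called higher and 6.48% lower (limma, Benjamini-Hochberg adjusted p under 0.05 over all 13721 genes). At day 7 Wwtr1, Ankrd1, Cyr61 and Axl had risen and Amotl2 had fallen in bound RNA, where 15.2% of all genes were called higher and 7.55% lower (22.7% in all). By day 14 the calls were Wwtr1 higher and Amotl2 lower, 2 of 8 where 8.71% of all genes were called higher and 4.58% lower (13.3% in all). In unbound RNA 4 of 8 rose at day 2 (Wwtr1, Ankrd1, Cyr61 and Ctgf, background 14.8%, of which 9.76% higher) and 1 of 8 at day 7 (Ankrd1, background 1.09%). At day 14 limma called 0 of 8 in unbound RNA (background 1.23%), with 3 at an unadjusted p under 0.05. The median log2 fold of the 8 genes in bound RNA was 1.08 at day 2, 0.46 at day 7 and 0.74 at day 14, and over all tested genes it was 0.16, 0.13 and 0.18. Without the third day 14 mouse the day 14 median was 0.33 in bound and 0.45 in unbound RNA. In unbound RNA the 8 genes had medians of 0.78, 0.60 and 0.87, and all tested genes 0.20, 0.18 and 0.22. An F-test over the 4 times called 6 of 8 in bound RNA, all but Tead1 and Axl (background 27%), and Ankrd1, Ctgf and Axl in unbound RNA (background 9.82%). Groups that did not overlap with sham were counted too. In bound RNA there were 6, 5 and 3 of 8 such genes at days 2, 7 and 14 (25.5%, 39.3% and 22.6% of all tested genes), and in unbound RNA 8, 6 and 6 of 8 (44.6%, 38.1% and 35.9%). In whole-tissue RNA, and in a pull-down from it, fewer cells of a type and less RNA per cell cannot be told apart. All comparisons with sham share the same 3 sham libraries of a fraction.

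**Figure D2:**
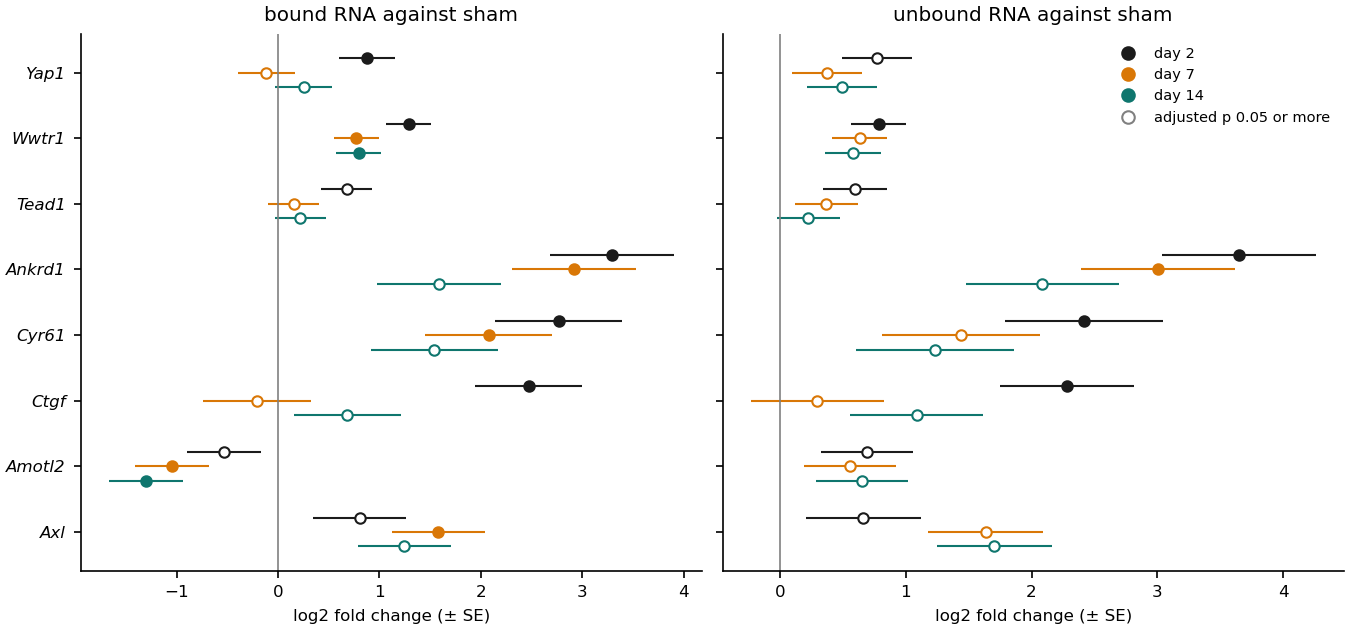
Log2 fold change against sham (x axis, on the scale of RPKM plus 0.5) for each of the 8 genes, with bound RNA on the left and unbound RNA on the right. Points are fitted values with their standard errors at day 2 (black), day 7 (orange) and day 14 (green), and filled points have an adjusted p under 0.05. Ankrd1 reaches 3.29 bound and 3.65 unbound at day 2, and Amotl2 alone has negative values at all 3 times in bound RNA.

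Yap1, which encodes YAP, rose in bound RNA at day 2 and overlapped with sham at day 7. Its bound RPKM was 4.34, 5.16 and 6.34 in sham (replicates 1 to 3), 8.80, 14.0 and 8.14 at day 2, 4.73, 4.76 and 4.87 at day 7, and 4.595, 4.32 and 12.4 at day 14. The day 2 libraries were all above the sham libraries, and at day 14 only the third mouse was. The mean went from 5.28 ± 1.01 (SD, n = 3) to 10.3 ± 3.18 RPKM, a log2 fold of 0.88 (SE 0.28, adjusted p = 0.0312). From day 2 to day 7 it fell by 0.99 on the log2 scale (adjusted p = 0.0346). Its unbound RPKM was 3.48, 3.38 and 3.90 in sham, 6.30, 7.46 and 5.72 at day 2, 4.16, 4.79 and 5.51 at day 7, and 5.57, 4.65 and 5.57 at day 14. Every injured library was above the sham libraries there, but the log2 fold of 0.77 at day 2 missed the threshold (adjusted p = 0.0671). The day 2 call in bound RNA was lost without the filter on low values (adjusted p = 0.0559), with only the 2 groups in the fit (0.158), and without sham replicate 1 (0.121), sham replicate 2 (0.0729) or day 2 replicate 2 (0.177). Of the leave-one-out fits, 4 ended the call on the fall to day 7, with adjusted p of 0.182 without day 2 replicate 2 and of 0.0909, 0.102 and 0.0890 without day 7 replicates 1, 2 and 3. The day 14 log2 fold in bound RNA was 0.25, and -0.21 without the third mouse.

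Wwtr1, which encodes TAZ, was the only one of the 8 genes called higher than sham in bound RNA at all 3 times. In bound RNA it stood at 5.95, 7.28 and 9.57 RPKM in sham, 13.2, 24.6 and 20.9 at day 2, 12.2, 12.4 and 14.9 at day 7, and 12.2, 12.6 and 15.3 at day 14. No injured library overlapped with sham, while the 3 injured times overlapped with their neighbours in the order day 2, day 14, day 7. The log2 fold was 1.29 (SE 0.22, adjusted p = 0.000373) at day 2, 0.77 (adjusted p = 0.0158) at day 7 and 0.80 (adjusted p = 0.0219) at day 14. In unbound RNA the values were 12.3, 11.1 and 10.6 RPKM in sham, 16.4, 21.1 and 22.5 at day 2, 16.5, 18.4 and 18.6 at day 7, and 16.4, 14.4 and 21.2 at day 14. Here too sham lay below every injured library, and the log2 fold of 0.79 at day 2 passed the test (adjusted p = 0.0191), while 0.63 at day 7 (0.166) and 0.58 at day 14 (0.150) did not. With only the groups compared in the fit the bound calls were lost (adjusted p = 0.0771, 0.0588 and 0.228 at days 2, 7 and 14). The bound call was also lost at day 7 without sham replicate 1 (0.0841) or day 7 replicate 3 (0.0715), and at day 14 without sham replicate 1 (0.103) or 2 (0.0630), and the unbound day 2 call without sham replicate 2 (0.0551) or 3 (0.0707) or day 2 replicate 2 (0.0842) or 3 (0.0803). Without the third day 14 mouse the bound log2 fold at day 14 was 0.70 (adjusted p = 0.0404).

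Tead1, the DNA-binding partner among the 8 genes, was not called against sham at any time in the fit without a block. It ranged from 4.30 to 6.44 RPKM in bound sham RNA, with 7.86, 11.1 and 7.21 at day 2, 4.08 to 7.59 at day 7 and 4.65 to 7.64 at day 14. In unbound RNA it ranged from 4.51 to 6.08 in sham, with 6.51, 8.83 and 9.09 at day 2, 5.63 to 8.02 at day 7 and 4.92 to 8.00 at day 14. All day 2 libraries were above sham in both fractions, and later libraries overlapped with it. The log2 fold at day 2 was 0.68 (SE 0.25, adjusted p = 0.0608) in bound and 0.60 (adjusted p = 0.114) in unbound RNA. Its folds at days 7 and 14 lay between 0.15 and 0.37, near the shift of all genes, and their sign changed with the scaling in bound RNA at day 7 (-0.03 after median-ratio rescaling) and in unbound RNA at day 14 (-0.02, and -0.08 after quantile normalization). Without the third mouse the day 14 folds were 0.07 bound and 0.04 unbound.

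Ankrd1 encodes a nuclear ankyrin repeat protein of stressed muscle and injured epithelium, and it had the largest fold against sham of the 8 genes in both fractions at days 2 and 7. Bound RNA held 2.05, 1.42 and 11.2 RPKM in sham, 30.3, 44.3 and 38.3 at day 2, 25.7, 34.7 and 26.5 at day 7, and 10.2, 5.10 and 25.3 at day 14. Unbound RNA held 1.23, 0.808 and 1.18 RPKM in sham, 21.1, 27.3 and 11.96 at day 2, 14.7, 9.38 and 12.6 at day 7, and 4.66, 2.52 and 18.2 at day 14. Days 2 and 7 were far above sham in each fraction and overlapped with each other, and day 14 ranged widely. In bound RNA the mean went from 4.90 ± 5.495 to 37.7 ± 7.02 RPKM at day 2 (SD, n = 3), and the log2 fold was 3.29 (SE 0.61, adjusted p = 0.000831) at day 2 and 2.92 (adjusted p = 0.00250) at day 7. The unbound log2 fold was 3.65 (adjusted p = 0.000398) at day 2 and 3.00 (adjusted p = 0.0217) at day 7. Both day 2 calls and the bound day 7 call were kept in all 15 alternatives, with adjusted p up to 0.0345, 0.00492 and 0.0262. The unbound day 7 call was lost in each of the 6 leave-one-out fits (adjusted p of 0.0515 to 0.119) and without the filter on low values (0.0710).

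Ankrd1 varied widely among the bound sham libraries (SD 5.495 RPKM) and at day 14 (SD 10.48 bound and 8.47 unbound). Sham bound replicate 3, at 11.2 RPKM, also had a podocyte marker sum of 220.5 RPKM against 72.0 and 83.4 in the other bound sham libraries. It was also the highest of the 3 in the summed RPKM of 6 distal nephron markers (1251 against 472 and 913) and of 6 injured tubule markers (325 against 211 and 219). The part of any of these in its Ankrd1 value was not tested. The bound log2 fold at day 14 was 1.58 (adjusted p = 0.0862), and 2.39 (adjusted p = 0.00870) without this library. It was 2.11 (adjusted p = 0.0478) without day 14 replicate 2 and 1.01 without the third day 14 mouse. The unbound log2 fold at day 14 was 2.09 (adjusted p = 0.0827), 2.65 (adjusted p = 0.0350) without day 14 replicate 2, and 1.34 without the third mouse.

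Cyr61 and Ctgf encode secreted matricellular proteins of the CCN family that bind integrins, and both are standard readouts of YAP activity. Cyr61 was at 3.12, 1.21 and 2.20 RPKM in bound sham RNA, 9.32, 22.8 and 22.6 at day 2, 6.53, 11.0 and 15.0 at day 7, and 2.73, 5.38 and 21.2 at day 14. Its unbound values were 2.37, 2.27 and 4.31 RPKM in sham, 13.5, 25.5 and 15.6 at day 2, 6.22, 9.01 and 11.4 at day 7, and 3.26, 4.52 and 25.8 at day 14. Days 2 and 7 were apart from sham in both fractions, and day 14 overlapped with it through the first mouse. The bound log2 fold was 2.77 (SE 0.63, adjusted p = 0.00421) at day 2 and 2.08 (adjusted p = 0.0220) at day 7, and the unbound one was 2.42 (adjusted p = 0.0129) at day 2 and 1.44 (adjusted p = 0.283) at day 7. The bound day 7 call was lost without the filter on low values (adjusted p = 0.0557) and without sham replicate 2 (0.0937), day 7 replicate 2 (0.0626) or day 7 replicate 3 (0.0907), and the unbound day 2 call without day 2 replicate 2 (0.0781). At day 14 the log2 fold was 1.54 bound and 1.23 unbound, neither called, and 0.77 and 0.37 without the third mouse.

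Ctgf passed the test against sham at day 2 and at no later time. Bound RNA held 2.50, 4.31 and 2.24 RPKM in sham, 9.94, 20.0 and 31.0 at day 2, 3.46, 2.01 and 2.09 at day 7, and 2.43, 2.98 and 15.6 at day 14. Unbound RNA held 2.32, 3.59 and 2.20 RPKM in sham, 9.44, 15.8 and 21.6 at day 2, 3.41, 3.31 and 3.37 at day 7, and 4.12, 3.997 and 13.8 at day 14. All day 2 libraries were above all sham and day 7 libraries of their fraction, and at day 14 the third mouse was high in both fractions. The log2 fold against sham at day 2 was 2.47 (SE 0.53, adjusted p = 0.00268) bound and 2.28 (adjusted p = 0.00602) unbound. From day 2 to day 7 Ctgf fell by 2.68 on the log2 scale in bound RNA (adjusted p = 0.00417), with Yap1 the other of 2 genes called in that comparison (background 7.09%, with 3.56% higher and 3.53% lower). It fell by 1.98 in unbound RNA (adjusted p = 0.0394, 1 of 8 called, background 3.51%, with 1.69% higher and 1.82% lower). The unbound fall lost its call without the filter on low values (adjusted p = 0.0904), without day 2 replicate 2 (0.138) or 3 (0.173), and without day 7 replicate 1 (0.105), 2 (0.131) or 3 (0.115). The bound values at day 2 and for the fall to day 7 stayed called in all 15 alternatives. At day 14 the bound log2 fold was 0.68, and -0.09 without the third mouse, and the unbound one was 1.09 and 0.54. From day 7 to day 14 limma called 0 of 8 genes in either fraction, with 1 and 0 at an unadjusted p under 0.05 in bound and unbound RNA and backgrounds of 0% and 0.00729%.

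Amotl2 encodes a scaffold of cell junctions that binds YAP and holds it out of the nucleus, and it is itself induced by YAP. It was called between bound and unbound RNA in sham and at days 2 and 7, and it fell in bound RNA at days 7 and 14. Bound RNA held 35.0, 50.9 and 32.6 RPKM in sham, 57.8, 23.1 and 13.9 at day 2, 16.7, 20.2 and 18.7 at day 7, and 10.9, 13.5 and 24.8 at day 14. The unbound values were 2.63, 3.81 and 3.77 RPKM in sham, 4.88, 6.49 and 5.91 at day 2, 4.40, 4.72 and 6.68 at day 7, and 4.64, 4.91 and 7.54 at day 14. Every bound library was above every unbound library, the bound libraries of days 7 and 14 were all below bound sham, and the unbound injured libraries were all above unbound sham. Of all tested genes, 14.4% and 7.12% were likewise lower without overlap in bound RNA at days 7 and 14. In unbound RNA 31.2%, 30.5% and 28.7% were higher without overlap at days 2, 7 and 14. Amotl2 at day 2 spread widely in bound RNA and overlapped with sham. The bound mean went from 39.5 ± 9.94 RPKM in sham to 18.5 ± 1.78 at day 7 and 16.4 ± 7.40 at day 14 (SD, n = 3). The bound log2 fold was -1.05 (SE 0.37, adjusted p = 0.0432) at day 7 and -1.30 (adjusted p = 0.0236) at day 14. The unbound log2 fold was 0.69, 0.56 and 0.65 at days 2, 7 and 14, with adjusted p of 0.211, 0.488 and 0.311.

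The fall of Amotl2 in bound RNA was close to the threshold. Leaving out 1 library ended the day 7 call in 5 of 6 fits, with adjusted p of 0.0761 and 0.163 without sham replicates 1 and 2 and of 0.115, 0.0778 and 0.0956 without day 7 replicates 1, 2 and 3, and it was also lost without the filter on low values (0.0891). At day 14 the call was lost without sham replicate 1 (0.0523) or 2 (0.0973), without day 14 replicate 1 (0.108) or 2 (0.0704), without the filter (0.0527) and with only the groups compared (0.149), while without the third mouse the log2 fold was -1.64 (adjusted p = 0.00570). Without day 2 replicate 1, at 57.8 RPKM, the day 2 log2 fold of -0.54 became -1.09 (adjusted p = 0.0122). Some podocyte markers also fell in bound RNA. Of 7 markers, 5 were called lower than sham at day 7 and 1 at day 14, where 7.55% and 4.58% of all tested genes were called lower. The sum of the 7 markers was 72.0 to 220.5 RPKM in sham, 33.1 to 48.2 at day 7 and 39.3 to 72.5 at day 14, against 19.9 to 55.5 in all unbound libraries. Distal nephron markers were lower too, 3 of 6 at day 7 and 1 of 6 at day 14, as were endothelial markers, 3 of 9 and 2 of 9. Without the third mouse the day 14 counts were 2 of 7 podocyte, 2 of 6 distal nephron and 6 of 9 endothelial markers. The 4.58% is from the fit with all mice. Sham bound replicate 3, with the highest podocyte sum, had the lowest Amotl2 of the 3 bound sham libraries. At day 2 the bound podocyte sum was 54.1, 63.8 and 158 RPKM in replicates 1 to 3, in the reverse order of Amotl2. At day 14 it was 39.3, 42.5 and 72.5 RPKM, in the same order as Amotl2. At day 7 it was 39.0, 48.2 and 33.1 RPKM, in neither order. The bound proximal tubule sum was 6533, 6944 and 3995 RPKM in sham and 3086, 830 and 679 at day 2. It was 3139, 3188 and 2598 RPKM at day 7 and 3286, 4799 and 2737 at day 14. Miox was the largest part of each of these sums. Of 10 proximal tubule markers, 4 were called lower at day 2, 2 at day 7 and 0 at day 14, against 6.48%, 7.55% and 4.58% of all tested genes. The part of these cells' RNA in the Amotl2 values was not tested.

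Bound and unbound RNA were then compared at each time, first between group means, without pairing the fractions of a mouse. Amotl2 was the 1 of 8 genes called in sham (log2 of bound over unbound 3.35, adjusted p = 6.13e-06, background 27.6%, with 14.6% higher and 12.9% lower), at day 2 (2.12, adjusted p = 0.00339, background 1.68%, with 1.17% higher and 0.503% lower) and at day 7 (1.74, adjusted p = 0.0136, background 2.35%, with 1.03% higher and 1.32% lower). At day 14 it was 1.39 (adjusted p = 0.0880), and 1.26 (0.207) without the third mouse, and limma called 0 of 8 genes, with 1 at an unadjusted p under 0.05 and a background of 0.816% (0.343% higher and 0.474% lower). Whether these differences changed with time is the interaction tested after this. The other 7 genes lay between -0.57 and 1.30 in sham. With the mouse as a block, which pairs the 2 fractions, the day 14 difference of Amotl2 was also called (adjusted p = 0.0307), where the block called 2.62% of all genes. Under the same block Ankrd1 was called higher in bound RNA in sham (1.30, adjusted p = 0.0124) and at day 7 (1.22, adjusted p = 0.0468), and Wwtr1 lower in sham (-0.57, adjusted p = 0.0199). The block called 39.3% of all genes in sham and 11.4% at day 7. Without a block Wwtr1 in sham had an adjusted p of 0.0594 and was called after median-ratio rescaling (0.0120), after quantile normalization (0.0114) and without sham bound replicate 3 (0.0203). Ankrd1 at day 7 was also called with only the groups compared (0.0106, where 15.5% of all genes were called). The sham difference of Amotl2 was called in all 15 alternatives. The day 2 call was lost with only the groups compared (adjusted p = 0.354). The day 7 call was lost without day 7 bound replicate 2 (0.0647) or 3 (0.0625) or unbound replicate 1 (0.0703) or 2 (0.0761).

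**Figure D3:**
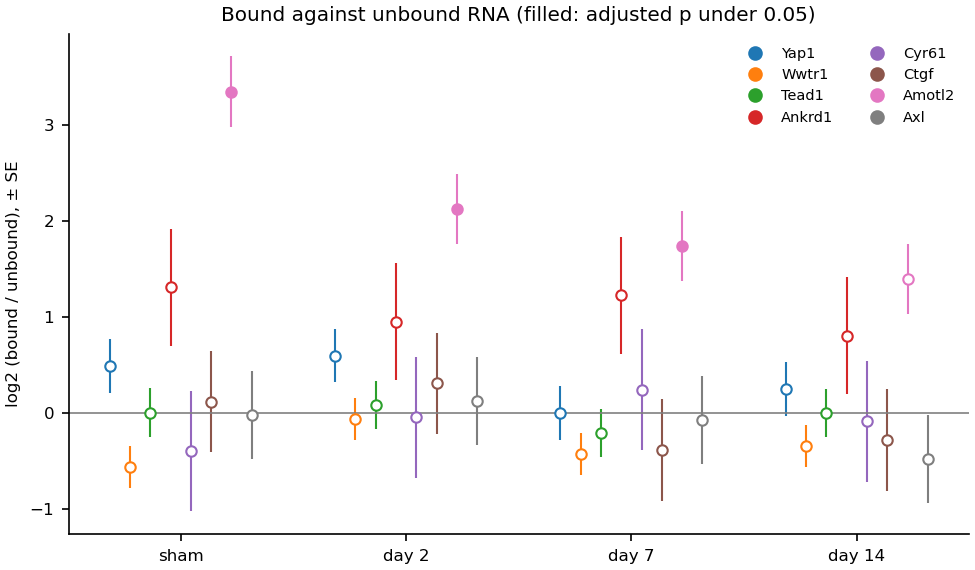
Log2 of bound over unbound RNA (y axis) for the 8 genes in sham and at days 2, 7 and 14, as fitted values with standard errors. Filled points have an adjusted p under 0.05 without the block. Amotl2 lies highest at every time and goes from 3.35 in sham to 1.39 at day 14.

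Whether the change after injury differed between the fractions was tested as an interaction. Without a block limma called 0 of 8 genes at days 2, 7 and 14, with 1 at an unadjusted p under 0.05 each time and backgrounds of 0%, 0.146% (0.0583% higher, 0.0875% lower) and 0.197% (0.0875% higher, 0.109% lower). For Amotl2 the bound change minus the unbound change was -1.23 (SE 0.52, adjusted p = 0.892) at day 2, -1.61 (adjusted p = 0.154) at day 7 and -1.96 (adjusted p = 0.105) at day 14. With the mouse as a block, which the pairing of the fractions allows, the day 14 value of -1.96 was called (adjusted p = 0.0262), where the block called 6.28% of all genes. It was also called, without a block, at -2.29 (adjusted p = 0.00992) without day 14 bound replicate 3 (13.3% of all genes called) and at -2.09 (adjusted p = 0.0326) without both libraries of the third mouse (5.04%). At day 2 the value was -1.78 (adjusted p = 0.0489) without day 2 bound replicate 1 (0.809% of all genes called), and at day 7 the call was made with only the groups compared (adjusted p = 0.0121, 6.65% of all genes called). Over the 7 podocyte markers the median of the same value at day 14 was -1.60, over the 6 distal nephron markers -1.10, over the 9 endothelial markers -0.87 and over all tested genes -0.12. The part of these cells in the Amotl2 value was not tested. The interactions of the other 7 genes lay between -0.50 and 0.64.

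Axl encodes a receptor tyrosine kinase of the TAM family that binds GAS6 and takes part in the clearance of dying cells. Its highest group means came at day 7 in bound and at day 14 in unbound RNA. Bound RNA held 1.93, 3.45 and 2.51 RPKM in sham, 3.37, 6.71 and 5.04 at day 2, 7.63, 8.19 and 10.5 at day 7, and 3.82, 4.46 and 17.5 at day 14. Unbound RNA held 2.79, 3.21 and 1.98 RPKM in sham, 3.25, 5.99 and 4.43 at day 2, 8.31, 7.49 and 12.4 at day 7, and 7.36, 5.46 and 21.9 at day 14. Day 7 and day 14 were above sham in both fractions, and the third mouse was the highest library of each. The bound log2 fold was 0.81 (adjusted p = 0.227) at day 2, 1.58 (SE 0.46, adjusted p = 0.0177) at day 7 and 1.25 (adjusted p = 0.0741) at day 14. The unbound log2 fold was 0.66 (adjusted p = 0.346), 1.63 (adjusted p = 0.0848) and 1.70 (adjusted p = 0.0648). The bound day 7 call was lost without sham replicate 1 (0.0726) or day 7 replicate 3 (0.0690). Without the third mouse the day 14 folds were 0.59 bound and 1.14 unbound, and without day 14 unbound replicate 2 the unbound fold was 2.09 (adjusted p = 0.0326).

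Macrophages also express Axl, and their markers moved with it. In bound RNA 6 of 10 macrophage markers were called higher than sham at day 7 (15.2% of all tested genes) and 5 of 10 at day 14 (8.71%). In unbound RNA it was 1 of 10 at each time (0.911% and 0.984% of all tested genes). These shares are from the fit with all mice, and without the third mouse the day 14 count was 3 of 10 markers in each fraction. Their summed RPKM was 39.1 to 63.8 in bound sham, 88.7 to 251 at day 2, 197 to 305 at day 7 and 121 to 1836 at day 14. In unbound RNA it was 64.1 to 89.4 in sham, 111 to 243 at day 2, 375 to 859 at day 7 and 318 to 1861 at day 14. None of the 10 markers was at 0 in all libraries, and the part of macrophage RNA in the Axl values was not tested. Stromal markers, whose cells express Cyr61 and Ctgf, summed to 115 to 150 RPKM in bound sham and 213 to 834 at day 2, with 5 of 12 called higher at day 2 in each fraction (13.3% of all tested genes in bound and 9.76% in unbound RNA). They reached 813 bound and 672 unbound in the third day 14 mouse. Their part in the Cyr61 and Ctgf values was not tested.

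**Figure D4:**
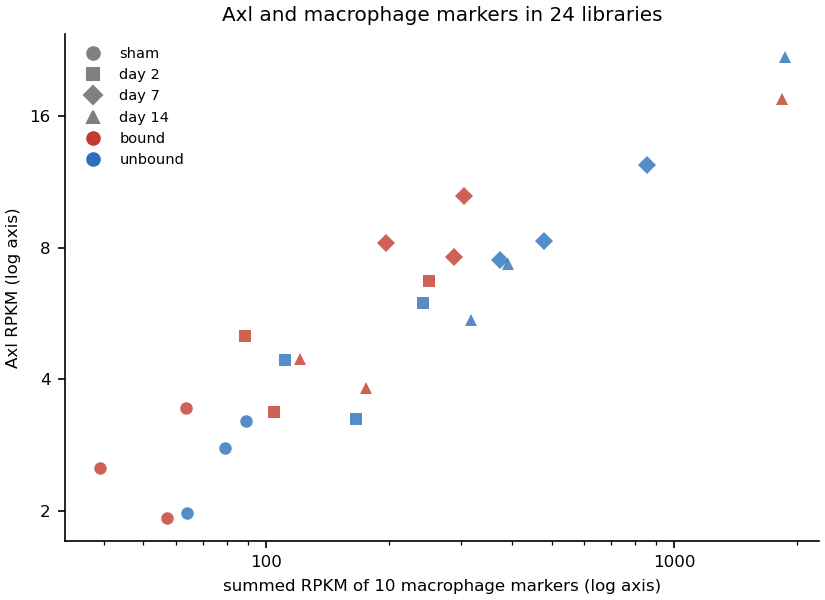
Axl RPKM (y axis, log scale) against the summed RPKM of 10 macrophage markers (x axis, log scale) in the 24 libraries. Colour gives the fraction and shape the time, and the 2 triangles at the upper right are the third day 14 mouse, at 17.5 RPKM bound and 21.9 RPKM unbound.

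For each gene, the genes most like it were named by Pearson's r of log2 values over the 24 libraries, among 11276 genes. The libraries share mice, times and fractions, so these are descriptions. Yap1 was most like Taf4 (r = 0.90), Wwtr1 was most like Rtn4 (0.95) and Itgb1 (0.94), and Tead1 was most like Map3k7 (0.85), the TAK1 kinase. Ankrd1 was most like Anxa3 (0.95) and Capg (0.94), Cyr61 most like Smc4 (0.93) and Adam8 (0.93), and Ctgf most like Arg1 (0.96). Amotl2 was most like Dlg5 (0.97), Trio (0.97) and Fam83h (0.97). Axl was most like Zfp385a (0.94), Clec4n (0.94) and Mpeg1 (0.94), the last 2 of which are genes of macrophages and other myeloid cells.

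Upstream of YAP and TAZ, 19 of 21 listed Hippo genes were tested. Most did not pass the test after injury. In bound RNA, Sav1, the scaffold of the MST kinases, rose by 1.18 (adjusted p = 0.00389) at day 2, and Map4k4, a kinase that acts beside MST, rose by 1.22 (adjusted p = 0.0203) at day 2 and 1.14 (adjusted p = 0.0265) at day 7. Map4k4 stood at 4.92, 7.20 and 5.26 RPKM in bound sham and at 11.0, 17.7 and 14.2 at day 2. Wwc2, of the KIBRA family, fell by 0.95 (adjusted p = 0.00310) at day 7 and 0.76 (adjusted p = 0.0197) at day 14, and Wwc1, KIBRA itself, fell by 0.81 (adjusted p = 0.0360) at day 14. Lats2, the kinase that is also a YAP target, fell by 0.93 (adjusted p = 0.0370) at day 7. It was at 4.04, 5.65 and 8.11 RPKM in bound sham and at 2.94, 2.31 and 3.10 at day 7. In unbound RNA Map4k4 rose by 1.70 (adjusted p = 0.00302) and Sav1 by 0.91 (adjusted p = 0.0244) at day 2, and limma called 0 of 19 at days 7 and 14, with 3 and 8 at an unadjusted p under 0.05. The counts in bound RNA were 2 of 19 higher at day 2 (13.3% of all tested genes), 1 higher and 2 lower at day 7 (15.2% and 7.55%), and 2 lower at day 14 (4.58%). Leaving out the third mouse gave 6 of 19 lower at day 14, where Wwc2 was at -0.89 (adjusted p = 0.00994) and Wwc1 at -0.84 (0.0392). The 4.58% is from the fit with all mice, so this count has no share of all genes beside it. The kinase Lats1 and the tumour suppressor Nf2 were not called at any time, with log2 folds against sham of 0.03 to 0.41 and of 0.03 to 0.30. The median over the list in bound RNA was 0.27 at day 2, -0.10 at day 7 and -0.01 at day 14. Leaving out 1 library ended several of these calls, with the highest adjusted p for Map4k4 without day 2 replicate 2 (0.102) at day 2 and without sham replicate 1 (0.0905) at day 7, for Wwc2 (0.104) and Wwc1 (0.198) at day 14 without sham replicate 2, for Lats2 without sham replicate 3 (0.134), and for Sav1 in unbound RNA without day 2 replicate 3 (0.154). Sav1 in bound RNA, Wwc2 at day 7 and Map4k4 in unbound RNA were called in each of their leave-one-out fits, with adjusted p up to 0.0289, 0.0236 and 0.0245.

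The Hippo genes were then compared between the fractions. In sham kidneys 8 of 19 were higher in bound RNA and 0 lower, where 14.6% of all tested genes were higher. The largest differences were Amot (2.61, adjusted p = 0.00282), Ptpn14 (2.37, adjusted p = 0.000129) and Amotl1 (2.18, adjusted p = 0.00144), 3 proteins that bind YAP, followed by Wwc2 (1.41, adjusted p = 9.02e-05). Amot and Amotl1, the relatives of Amotl2, were at 8.88 to 13.2 and 10.8 to 21.9 RPKM in bound sham RNA and at 1.30 to 1.60 and 2.67 to 3.66 in unbound sham RNA. Neither group overlapped with the other. Amot, like Amotl2, was highest in day 2 bound replicate 1, at 60.3 RPKM. Podocyte markers were also higher in bound sham RNA, 7 of 7. In day 2 bound replicate 1 their sum was 54.1 RPKM, against 63.8 and 158 in the other day 2 bound libraries. The part of podocyte RNA in these genes was not tested. Fewer Hippo genes were called higher in bound RNA after injury, 2 at day 2 (Wwc1 and Wwc2), 1 at day 7 (Wwc1) and 0 at day 14. The share of all tested genes called higher was also lower at these times, 1.17%, 1.03% and 0.343%. At day 14 limma had 5 at an unadjusted p under 0.05. Without day 2 bound replicate 1 the adjusted p at day 2 was 0.150 for Wwc1 and 0.203 for Wwc2, and without day 7 unbound replicate 2 it was 0.158 for Wwc1 at day 7. With all mice the interaction was called for 0 of 19 at each time, with 1, 6 and 4 at an unadjusted p under 0.05 at days 2, 7 and 14. A change of the difference with injury was therefore not shown in that fit. Without the third day 14 mouse, 3 of 19 were called lower at day 14, where 5.04% of all genes were called. These were Ptpn14 (-1.80, adjusted p = 0.0174), Amotl1 (-2.07, adjusted p = 0.0336) and Lats2 (-1.21, adjusted p = 0.0450).

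Among the other TEAD factors, Tead3 was at 1.04 to 2.92 RPKM, Tead2 at 0.244 to 8.26 and Tead4 at 0.0889 to 1.95 over the 24 libraries, with Tead2 highest in the third day 14 mouse. Of the 7 listed TEAD partners 4 were tested, and limma called 0 of 4 against sham at any time, with at most 1 at an unadjusted p under 0.05. Tead2 had the highest of their log2 folds, 1.57 in unbound RNA at day 14 (adjusted p = 0.152), and 0.98 (0.298) without the third mouse, and Vgll4 was then called lower in bound RNA (-1.01, adjusted p = 0.00773). Vgll4, which competes with YAP for TEAD, stood at 21.5, 18.7 and 18.8 RPKM in bound and 7.54, 7.25 and 6.52 in unbound sham RNA, a log2 difference of 1.405 (adjusted p = 0.00106). Of the relatives and ligands, Gas6, the ligand of Axl, and Mertk, a sister receptor, were not called against sham. Gas6 ranged from 31.5 to 67.4 RPKM in bound sham and from 55.0 to 64.6 at day 7. Mertk ranged from 4.91 to 8.15 RPKM in bound sham and from 3.63 to 4.49 at day 7, a log2 fold of -0.57 (adjusted p = 0.163).

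The other YAP targets on the list did not move as one group. Of 17 listed, 16 were tested, and in bound RNA 3 rose and 0 fell at day 2, 3 rose and 2 fell at day 7, and 1 rose and 1 fell at day 14. Of all tested genes 13.3%, 15.2% and 8.71% rose and 6.48%, 7.55% and 4.58% fell at these times. Leaving out the third mouse gave 1 higher and 3 lower at day 14, while the shares above are from the fit with all mice. The 3 that rose at day 2 were Fjx1 (1.37, adjusted p = 0.000403), F3, which encodes tissue factor (0.98, adjusted p = 0.0373), and Asap1 (0.82, adjusted p = 0.0248). Tgfb2, a TGF-beta ligand, was at 0.166, 1.404 and 0.489 RPKM in bound sham, 0.220 to 0.362 at day 2, 5.25, 2.34 and 3.35 at day 7, and 4.27, 2.68 and 5.12 at day 14. It rose by 1.88 (adjusted p = 0.00415) at day 7 and 2.03 (adjusted p = 0.00542) at day 14 against sham, with no overlap, at times when Ctgf was not called. Nuak2, a kinase, fell by 1.24 (adjusted p = 0.0213) at day 7 and 1.54 (adjusted p = 0.0122) at day 14. Without the third mouse the day 14 values were 1.85 (adjusted p = 0.0100) for Tgfb2 and -1.95 (0.00208) for Nuak2. Like Amotl2, it was higher in bound than in unbound sham RNA, by 1.51 (adjusted p = 0.00554). Myof (1.34, adjusted p = 0.0452) and Nt5e (1.23, adjusted p = 0.0224) rose at day 7, and Lats2, also on the Hippo list, fell. In unbound RNA Myof (2.11, adjusted p = 0.00450), Gadd45a (1.21, adjusted p = 0.0168) and Fjx1 (0.89, adjusted p = 0.0138) rose at day 2, limma called 0 of 16 at day 7 (2 at an unadjusted p under 0.05), and Ccdc80 rose by 3.11 (adjusted p = 0.0459) at day 14. Without day 14 unbound replicate 3 the log2 fold of Ccdc80 was 2.28 (adjusted p = 0.446), and without both libraries of that mouse the same 2.28 had an adjusted p of 0.0308. In sham kidneys 6 of 16 were higher in bound RNA and 0 lower (14.6% and 12.9% of all tested genes), led by Arhgef17 (3.28, adjusted p = 7.54e-05). Of the 45 called differences of these pathway genes, 17 were called under every alternative and 0 changed sign. Those 17 include Fjx1 at day 2 and Tgfb2 at day 7 in bound RNA. In leave-one-out fits the adjusted p rose to 0.124 for Asap1 and 0.165 for F3 without day 2 bound replicate 2, to 0.134 for Nuak2 and 0.119 for Nt5e at day 7 without sham bound replicate 2, to 0.174 for Myof without day 7 bound replicate 3, and to 0.0703 for Nuak2 at day 14 without day 14 bound replicate 1. In unbound RNA it rose to 0.0862 for Gadd45a without sham replicate 2 and to 0.0760 for Fjx1 without sham replicate 1.

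**Figure D5:**
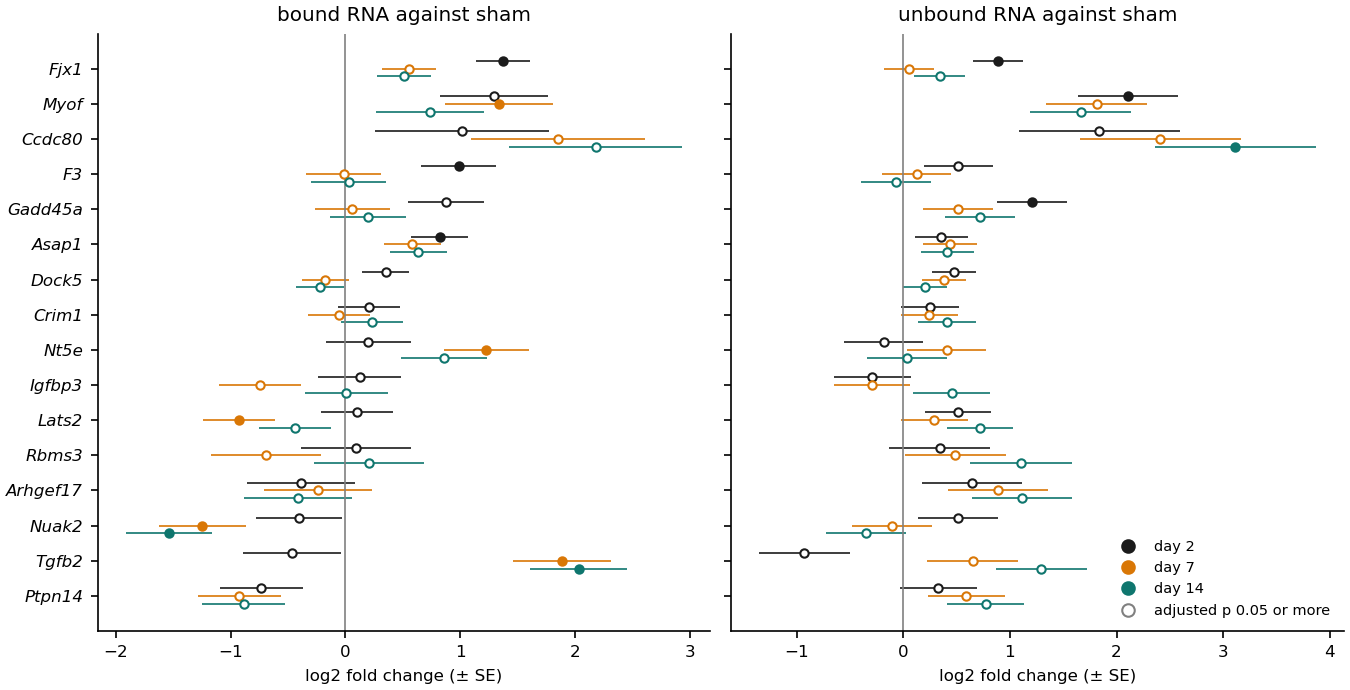
Log2 fold change against sham (x axis, with standard errors) of the 16 tested genes on the list of other YAP targets, bound RNA on the left and unbound RNA on the right, at day 2 (black), day 7 (orange) and day 14 (green). Filled points have an adjusted p under 0.05. Fjx1 is filled at day 2 in both fractions, and Tgfb2 is filled at days 7 and 14 in bound RNA, at 1.88 and 2.03.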

How the data were processed

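RNA of bound and unbound kidney fractions from 12 mice was sequenced after low-input cDNA synthesis. The deposited table holds RPKM, which the authors made with STAR 2.0.4b, featureCounts 1.4.5 of Subread and edgeR, per the submitters' processing notes. Build and annotation: not given in the sources used here. Of 41831 lines, 1081 were repeats, identical to their first copies, and were dropped. With GENCODE M21 (GRCm38) exon lengths, 68.95% to 76% of low values (those of at most 50 reads) lay within 0.02 of a whole number of reads, where 4% would by chance. RPKM holds no read counts, so no count model was fitted.

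The filter kept 13721 genes that reached 1 RPKM in 3 or more libraries. Values were tested as log2(RPKM + 0.5) with limma 3.58.1 (R 4.3.3): 8 group means over all 24 libraries, trended eBayes, Benjamini-Hochberg adjustment over all kept genes, called under 0.05. Folds are on that scale and understate changes of low genes. The labels call the 3 samples of a group biological replicates. The fit was tested on simulated data. Bound and unbound libraries with the same number deviated together in all 12 pairs (r = 0.27 to 0.67, other pairs -0.60 to 0.31), and the protocol splits 1 homogenate into both, so the block of the alternatives is the mouse between fractions. It is the replicate number between times. Between times, only bound days 7 and 14 had every r over 0.1.

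Alternatives were pseudocounts of 0.1 and 1, no filter, a stricter filter, median-ratio rescaling, quantile normalization, no trend, the block, only the groups compared, and each replicate left out. Leaving out the third day 14 mouse was added after seeing the data. Genes, lists and the rule for naming genes (all 8, up to 4 called genes per pathway list and comparison, and Lats1, Lats2, Nf2, Tead2, Tead3, Tead4, Vgll4, Gas6 and Mertk) were chosen with earlier results of these data known.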

Additional observations from a re-analysis of the deposited data

Results flagged for a closer look

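A test of the difference between fractions, with the mouse as a block, called Amotl2 at day 14. Its day 14 change against sham in bound RNA minus that in unbound RNA was -1.96 on the log2 scale (adjusted p = 0.0262, limma, over all 13721 genes, of which 862 were called, 6.28%). The medians of the same value without a block were -1.60 over 7 podocyte markers, -1.10 over 6 distal nephron markers and -0.48 over 19 Hippo genes, and their part in the Amotl2 value was not tested. Bound Amotl2 was lower than bound sham in 3 of 3 day 14 mice and unbound Amotl2 higher than unbound sham in 3 of 3. Of all tested genes, 7.12% were likewise lower without overlap in bound RNA and 28.7% higher without overlap in unbound RNA. The unbound fold of 0.65 was not called (limma, adjusted p = 0.311). Without the block the same difference had an adjusted p of 0.105.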

How the results depend on the processing

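Over 66 values of the 8 genes, 1028 recomputed values gave 927 with the same direction and call, 60 that lost the call, 28 that gained it and 13 that changed sign, 0 of these among called values. The share of all genes called moved with the setting too. For bound against unbound it went from 2.35% to 15.5% at day 7 with only the groups compared. In sham it went from 27.6% to 39.3% with the mouse as a block. The counts below come without such shares, so they cannot be read as particular to the 8 genes. The number of the 8 genes called moved as follows, and the cause was not tested. With only the groups compared it was 3 in bound RNA at day 2, 0 at day 14, 1 for bound day 7 against day 2, 4 in unbound RNA at day 7, 0 and 2 for bound against unbound at days 2 and 7, 1 for the day 7 interaction, and 6 in the unbound F-test. Without the filter, which adds genes to the adjustment, it was 3 and 1 in bound RNA at days 7 and 14, 1 for bound day 7 against day 2, 0 in unbound RNA at day 7 and for unbound day 7 against day 2, and 1 in the unbound F-test. Median-ratio rescaling and quantile normalization each gave 2 for bound against unbound in sham. With a block, which was the mouse between fractions and the replicate number between times, it was 3, 2 and 1 for bound against unbound in sham and at days 7 and 14 and 1 for the day 14 interaction, and between times 4 in bound RNA at day 14, 2 and 1 in unbound RNA at days 7 and 14, and 5 in the unbound F-test. Between times the block also called Tead1 in bound RNA at day 2 (adjusted p = 0.0443, limma). The replicate number cannot pair mice between times, because each mouse was killed at a single time. Only for bound days 7 and 14 was every r between same-number libraries over 0.1, and there the block left 0 called. The block changed no other count by more than 1.5 times.

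Leaving out single replicates gave 4 to 6 called in bound RNA at day 2, 1 to 5 at day 7 and 0 to 3 at day 14, 1 to 3 for bound day 7 against day 2, 2 to 4, 0 and 0 to 2 in unbound RNA at days 2, 7 and 14, and 0 to 1 for unbound day 7 against day 2. For bound against unbound the range was 1 to 2 in sham, 1 at day 2, 0 to 1 at day 7 and 0 at day 14. The interactions ranged over 0 to 1, 0, and 0 to 1 at days 2, 7 and 14, and the F-tests over 3 to 7 in bound and 1 to 4 in unbound RNA. Without the third day 14 mouse the day 14 interaction had 1 called and the unbound F-test 6. Signs changed for values that were never called. Tead1 in bound RNA at day 7 became -0.034 after median-ratio rescaling and ranged from -0.026 to 0.39 in leave-one-out fits, and in unbound RNA at day 14 it became -0.017 and -0.079 after median-ratio rescaling and quantile normalization. Ctgf in unbound RNA at day 7 became -0.012 after quantile normalization. Without the third day 14 mouse, Yap1 and Ctgf in bound RNA at day 14 became -0.21 and -0.092. Leave-one-out ranges that crossed 0 were also -0.24 to 0.014 (Yap1) and -0.42 to 0.043 (Ctgf) in bound RNA at day 7, -0.21 to 0.50 (Yap1) and -0.092 to 1.14 (Ctgf) at day 14, and -0.25 to 0.19 for Wwtr1 between fractions at day 2. Each group has 3 mice, and 1 of the day 14 mice stood apart from the rest. RPKM keeps no read counts, so counting error could not be modelled.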
